A study of Mus musculus with 40 samples.

Results

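The genes described here are 10 genes of the follicular T cell program: Bcl6, Ascl2, Tox, Tox2 and Pou2af1, which encode nuclear regulators, Cxcr5, Cd200 and Sh2d1a, which encode 2 surface proteins and an adaptor, and Il21 and Sostdc1, which encode secreted proteins. They were chosen by name, with earlier results of these data known, and all 10 were found among the 55421 gene rows of the count table. Bulk 3′ mRNA libraries had been made from 2000 sorted CD4+ cells each, taken from perfused mice labelled WT that carried a Foxp3-Thy1.1 reporter. Regulatory T cells (Treg, Thy1.1+) and conventional CD4+ T cells (Tconv, Thy1.1-) came from 10 sources: blood, spleen, lymph node, Peyer's patch, lamina propria of the gut (labelled LPL), intraepithelial layer of the gut (labelled IEL), pancreas, kidney, liver and lung. Each source had 3 Treg libraries and 1 Tconv library, 40 in all, with 12197980 to 28823493 counts per library. The age and sex of the mice are not given in the sources used here, nor is it stated which libraries came from one mouse, so the p-values measure the spread between these libraries only. No cell was sorted on CXCR5 or PD-1, so each library is a mixture in which fewer follicular cells and less RNA per cell cannot be told apart.

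Follicular helper T cells enter the B cell follicle through the chemokine receptor CXCR5, hold contact with B cells through SLAM family receptors and their adaptor SAP (Sh2d1a), and deliver IL-21 to germinal center B cells. The repressor BCL6 sets up this program, helped by ASCL2, TOX, TOX2 and others, and follicular regulatory T cells use much of it while keeping FOXP3. Peyer's patches, the lymphoid follicles of the gut wall, hold germinal centers without immunization, whereas the spleen of an unimmunized mouse holds few.

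The promoters of Bcl6, which encodes the lineage factor, of Tox2, the member that passed the test most often between sources, and of Il21, the cytokine of the set, are shown because they hold regulatory sequence next to the genes whose values follow. RefSeq entries (GRCm38.p6, the build called mm10) were matched for 6 of the 10 members: Bcl6, Tox2, Il21, Ascl2, Cd200 and Pou2af1. Each line gives the 250 bases before a transcription start, 5′ to 3′ on the gene's strand. The Bcl6 window precedes the second of its annotated starts, chr16:23981284-23981533 on the minus strand, and lies within the span of the gene. A stretch of bases just after this start was not found in any Bcl6 transcript of the reference set searched, unlike that after the first start. The Tox2 window precedes the fourth of its starts, chr2:163225203-163225452 on the plus strand. The Il21 window is chr3:37232637-37232886 on the minus strand. Capitals mark matches, on either strand, to the NFAT motif GGAAAA and the STAT motif TTCNNNGAA; no match overlaps another.
Bcl6: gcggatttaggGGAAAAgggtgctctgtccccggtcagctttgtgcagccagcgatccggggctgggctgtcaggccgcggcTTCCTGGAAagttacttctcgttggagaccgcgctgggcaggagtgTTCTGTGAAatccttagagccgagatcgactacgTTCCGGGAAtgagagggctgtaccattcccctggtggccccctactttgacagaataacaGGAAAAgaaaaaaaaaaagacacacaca
Tox2: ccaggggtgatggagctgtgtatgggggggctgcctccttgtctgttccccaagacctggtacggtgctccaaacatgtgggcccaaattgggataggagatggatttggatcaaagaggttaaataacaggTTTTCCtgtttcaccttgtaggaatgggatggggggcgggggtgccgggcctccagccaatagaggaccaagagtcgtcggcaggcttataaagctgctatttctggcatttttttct
Il21: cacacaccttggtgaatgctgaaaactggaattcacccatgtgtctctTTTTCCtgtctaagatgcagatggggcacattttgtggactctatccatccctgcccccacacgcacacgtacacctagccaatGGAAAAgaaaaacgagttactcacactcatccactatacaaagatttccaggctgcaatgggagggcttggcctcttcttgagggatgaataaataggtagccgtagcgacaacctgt
The Bcl6 window holds 3 STAT and 2 NFAT matches, the Tox2 window 1 NFAT match and the Il21 window 2 NFAT matches. For Bcl6 and Tox2, windows with the most matches were chosen for display: the window of the first Bcl6 start holds 1 STAT match and no NFAT match, those of the first 3 Tox2 starts hold no match, and that of the fifth Tox2 start, shifted by 1 base, holds the same NFAT match. As a description only, among 32851 promoter windows of this length, 20.4% hold the NFAT letters and 7.02% the STAT letters. The octamer ATGCAAAT (1.60% of windows), the AP-1 motif TGANTCA (6.75%) and the E-box CAGCTG (13.0%) had no match in any window of the 6 matched members, and the windows of Ascl2, Cd200 and Pou2af1 held no match to any of the 5 motifs. These are matches of letters only.

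The sorted populations carried the genes that define them. Foxp3 was at 68.4 to 306 CPM (a gene's count relative to its library's total, scaled by TMM over the 40 libraries) in the 30 Treg libraries and at 0.158 to 6.66 CPM in the 10 Tconv libraries. Summed counts of 15 B cell genes, led by H2-Ob, Cd79b and Cd72, came to 168 to 248 CPM in Peyer's patch Treg, 151 to 179 in spleen Treg and 85.9 to 92.2 in pancreas Treg. Summed counts of 3 germinal center B cell genes (Mef2b, Rgs13 and Gcsam) came to 2.42 to 13.4 CPM in Peyer's patch Treg, 0.106 to 0.879 in spleen Treg, 0.460 to 1.41 in pancreas Treg and 13.2 in the Peyer's patch Tconv library. Acinar cell genes of the pancreas made up 2.61% to 11.8% of the counts of pancreas Treg, with replicate 6 highest, against 0.000648% to 0.00235% in spleen Treg. The germinal center B cell sum was thus higher in every Peyer's patch library than in any spleen library, as were several members below; its part in their values was not tested.

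**Figure D1:**
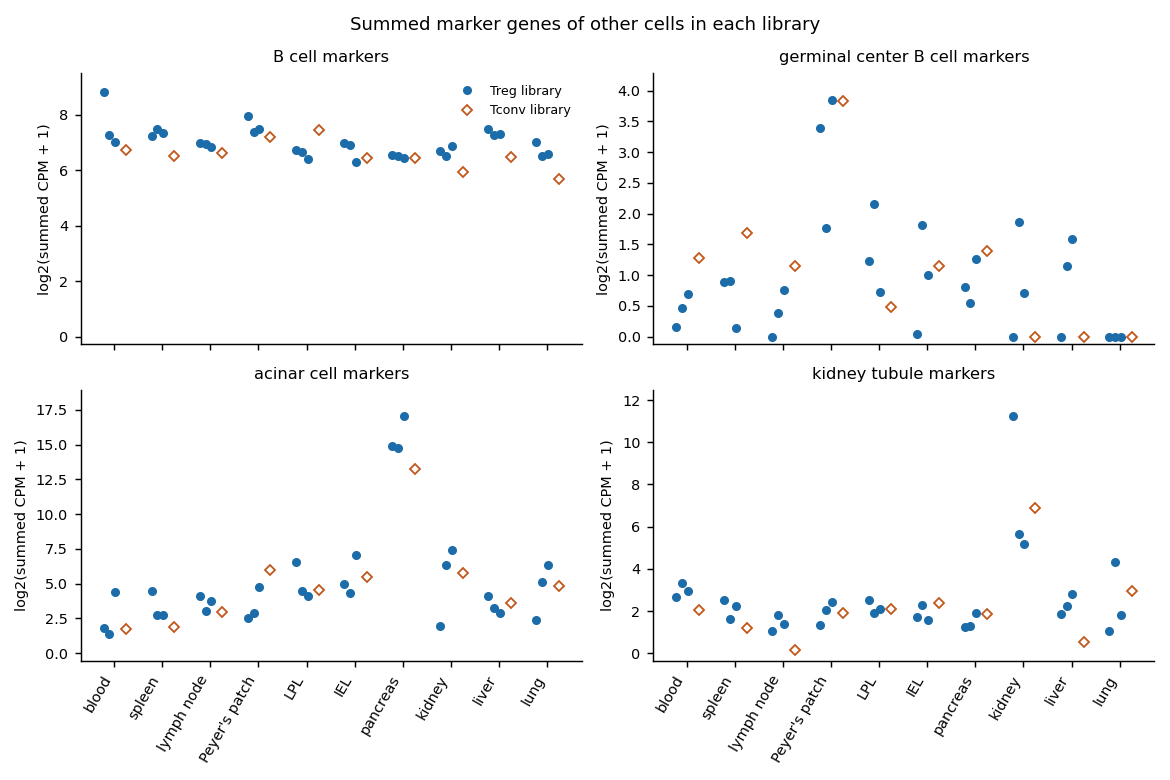
Summed CPM of marker genes for 4 other cell types, as log2(summed CPM + 1), in each library by source; filled points are Treg libraries and open diamonds Tconv libraries. The germinal center B cell sum reaches its highest values in Peyer's patch (2.42 to 13.4 CPM in Treg), the acinar sum in pancreas, and the kidney tubule sum in kidney, where replicate 1 stands at 2397 CPM.

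Read across Peyer's patch, pancreas and spleen, Tox2 was higher in both Peyer's patch and pancreas Treg than in spleen Treg, Pou2af1 was higher in Peyer's patch than in spleen, and Cd200 was lower in Peyer's patch than in pancreas. Cxcr5, Bcl6, Ascl2, Il21 and Sostdc1 were also above every spleen library in each of the Peyer's patch Treg libraries but did not pass the test across all genes with the 30 libraries. Of 15 alternatives run, Cxcr5 passed in 6, Bcl6 and Sostdc1 in 3 each, Ascl2 in 1 and Il21 in none. For Bcl6, 1 of these left out a lung library. Tox and Sh2d1a overlapped between Peyer's patch and spleen.

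Bcl6 (ENSMUSG00000022508.5, chr16:23965052-23988852), the repressor that defines the lineage, was at 146, 103 and 132 CPM in the 3 Peyer's patch Treg libraries, at 142, 108 and 189.9 in pancreas Treg, and at 44.7, 46.0 and 41.3 in spleen Treg. Every Peyer's patch and pancreas library stood above every spleen library, and the 2 former sources overlapped. The log2 fold change against spleen was 1.51 ± 0.80 (SE) for Peyer's patch (adjusted p = 0.469, edgeR) and 1.73 ± 0.80 for pancreas (adjusted p = 0.278, edgeR), neither of which passed. The SE came from all 30 Treg libraries, including lung, where Bcl6 was at 311 CPM in replicate 1 and at 4.75 and 9.44 in replicates 5 and 6. With lung replicate 1 left out, a choice made after seeing the data, the fold changes were nearly the same and both passed: 1.50 ± 0.31 for Peyer's patch (adjusted p = 0.0139, edgeR) and 1.73 ± 0.31 for pancreas (adjusted p = 0.00202, edgeR).

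Ascl2 (ENSMUSG00000009248.6, chr7:142966829-142969264), which encodes a basic helix-loop-helix factor known to switch on Cxcr5, was at 18.1, 3.71 and 8.07 CPM in Peyer's patch Treg, at 5.47, 0.690 and 0.672 in pancreas Treg and at 1.31, 1.90 and 0.106 in spleen Treg. Peyer's patch lay above spleen in all libraries, with replicate 1 the highest, and it overlapped with pancreas. The change against spleen, 3.15 ± 1.52 on the log2 scale, did not pass (adjusted p = 0.419, edgeR).

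Tox2 (ENSMUSG00000074607.11, chr2:163203125-163324170), an HMG box factor that promotes follicular helper differentiation, was at 296, 216 and 282 CPM in Peyer's patch Treg. It was at 371, 288 and 172 CPM in pancreas Treg and at 59.8, 88.6 and 38.4 in spleen Treg. No library of the first 2 sources came as low as the highest spleen library, and Peyer's patch and pancreas overlapped. Tox2 rose by 2.06 ± 0.43 (log2, SE) in Peyer's patch against spleen (adjusted p = 0.0157, edgeR) and by 2.12 ± 0.43 in pancreas against spleen (adjusted p = 0.00764, edgeR); both comparisons share the spleen libraries. The difference between Peyer's patch and pancreas was -0.06 ± 0.41 (adjusted p = 1, edgeR). The Peyer's patch call was lost when Peyer's patch replicate 1 or 3 or spleen replicate 2 or 4 was left out (adjusted p = 0.0565, 0.0541, 0.0819 and 0.134), with the log2 fold change between 1.82 and 2.03. The pancreas call was lost without spleen replicate 2 or 4 (adjusted p = 0.0514 and 0.0773) and held without pancreas replicate 6, at 2.37 ± 0.45.

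Tox (ENSMUSG00000041272.11, chr4:6686353-6991557), a related HMG box factor also known from chronically stimulated T cells, was at 310.1, 164 and 207 CPM in Peyer's patch Treg, at 373, 282 and 232 in pancreas Treg and at 181, 220.5 and 169 in spleen Treg. Pancreas stood above spleen in every library, while Peyer's patch lay on both sides of it. The log2 fold changes against spleen were 0.24 ± 0.20 for Peyer's patch (adjusted p = 0.724, edgeR) and 0.61 ± 0.20 for pancreas (adjusted p = 0.119, edgeR). The paralogs Tox and Tox2 thus had different values here: 1 passed the test in 2 comparisons and the other in neither, though the difference between them was not tested.

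Pou2af1 (ENSMUSG00000032053.8, chr9:51213708-51240080), a coactivator of the octamer-binding factors that B cells also express strongly, was at 40.3, 14.9 and 46.8 CPM in Peyer's patch Treg. It was at 22.9, 15.3 and 4.37 CPM in pancreas Treg and at 5.75, 4.32 and 4.03 in spleen Treg. Peyer's patch was above spleen in all libraries and overlapped with pancreas. Pou2af1 rose by 2.83 ± 0.69 (log2) in Peyer's patch against spleen (adjusted p = 0.0470, edgeR), and the change in pancreas was 1.56 ± 0.66 (adjusted p = 0.235, edgeR). Leaving out any library of the comparison other than Peyer's patch replicate 2 ended the call, with adjusted p from 0.112 to 0.238. In these libraries the B cell gene sum overlapped between Peyer's patch (168 to 248 CPM) and spleen (151 to 179 CPM), and in blood the library with the highest B cell sum, Treg replicate 2 at 446 CPM, also had the highest Pou2af1, 20.1 CPM against 3.85 and 4.24; whether B cell RNA contributed was not tested.

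Cxcr5 (ENSMUSG00000047880.15, chr9:44511787-44561877), the receptor for the follicle chemokine CXCL13, was at 188, 282 and 294 CPM in Peyer's patch Treg. It was at 129.96, 87.1 and 65.3 CPM in pancreas Treg and at 89.7, 55.6 and 73.6 in spleen Treg. Peyer's patch lay above both other sources in all libraries, and pancreas overlapped with spleen. The log2 fold change of Peyer's patch was 1.78 ± 0.48 against spleen (adjusted p = 0.0862, edgeR) and 1.43 ± 0.48 against pancreas (adjusted p = 0.234, edgeR), neither of which passed. Fitted on the Peyer's patch and spleen libraries alone, the change of 1.74 ± 0.22 passed (adjusted p = 0.00628, edgeR), as it did with DESeq2 (1.73, adjusted p = 0.0146). It also passed without kidney Treg replicate 1, the kidney library with the highest Cxcr5 (1.79 ± 0.37, adjusted p = 0.0136, edgeR). Among the alternatives run, Cxcr5 passed in 6 of 15 for Peyer's patch against spleen, not in the other 9, and in 1 of 15 for Peyer's patch against pancreas. Cxcr5 overlaps Bcl9l on the other strand, and the strand setting of the counting is not given in the sources used here; over the 40 libraries Cxcr5 had 63749 counts and Bcl9l 49719.

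Sh2d1a (ENSMUSG00000005696.11, chrX:42502453-42529330) encodes SAP, the adaptor of SLAM family receptors that T cells need to stay in contact with B cells. It was at 243, 154 and 169 CPM in Peyer's patch Treg, at 169, 128 and 159.9 in pancreas Treg and at 122, 195 and 116 in spleen Treg. The 3 sources overlapped, with log2 fold changes of 0.37 ± 0.23 and 0.06 ± 0.23 against spleen (adjusted p = 0.571 and 0.946, edgeR).

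Cd200 (ENSMUSG00000022661.14, chr16:45382135-45409053), a surface glycoprotein that is high on follicular helper cells and dampens myeloid cells through its receptor, had an order of its own. It was at 71.5, 80.9 and 85.8 CPM in Peyer's patch Treg, at 143, 157 and 209.8 in pancreas Treg and at 118, 106 and 103 in spleen Treg. Peyer's patch was below spleen and spleen below pancreas in every library. Cd200 fell by 1.11 ± 0.24 (log2) in Peyer's patch against pancreas (adjusted p = 0.0241, edgeR), while -0.48 ± 0.24 against spleen did not pass (adjusted p = 0.442, edgeR), nor did 0.63 ± 0.24 in pancreas against spleen (adjusted p = 0.188, edgeR). The call between Peyer's patch and pancreas was lost without pancreas replicate 5 or 6 or without any single Peyer's patch library (adjusted p from 0.0619 to 0.161), and the change was -0.91 ± 0.26 without pancreas replicate 6, the library with most acinar RNA.

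Il21 (ENSMUSG00000027718.8, chr3:37222759-37232636), the cytokine that follicular helper cells give to B cells, was at 14.6, 7.05 and 10.5 CPM in Peyer's patch Treg. It was at 24.6, 4.98 and 0.0672 CPM in pancreas Treg and at 4.80, 0.293 and 0 in spleen Treg. Peyer's patch lay above spleen in all libraries, while pancreas ranged from the highest of these values to near none. The log2 fold changes against spleen, 2.64 ± 1.55 and 2.50 ± 1.54, did not pass (adjusted p = 0.534 and 0.420, edgeR).

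Sostdc1 (ENSMUSG00000036169.6, chr12:36314139-36318452), a secreted antagonist of BMP and Wnt signals made by some follicular helper cells, was at 91.8, 12.2 and 40.6 CPM in Peyer's patch Treg. It was at 22.5, 19.2 and 17.7 CPM in pancreas Treg and at 3.03, 3.003 and 0.371 in spleen Treg. Both sources lay above spleen in all libraries, and the Peyer's patch libraries spread on both sides of the closely grouped pancreas ones. The log2 fold changes against spleen were the largest of the members, 4.49 ± 1.47 for Peyer's patch (adjusted p = 0.179, edgeR) and 3.20 ± 1.40 for pancreas (adjusted p = 0.25, edgeR), and did not pass. Without kidney replicate 1, where Sostdc1 also stood apart, the Peyer's patch change was 4.49 ± 1.16 (adjusted p = 0.0597, edgeR). Among the alternatives run, Sostdc1 passed in 3 of 15 for Peyer's patch against spleen and in 2 of 16 for pancreas against spleen.

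**Figure D2:**
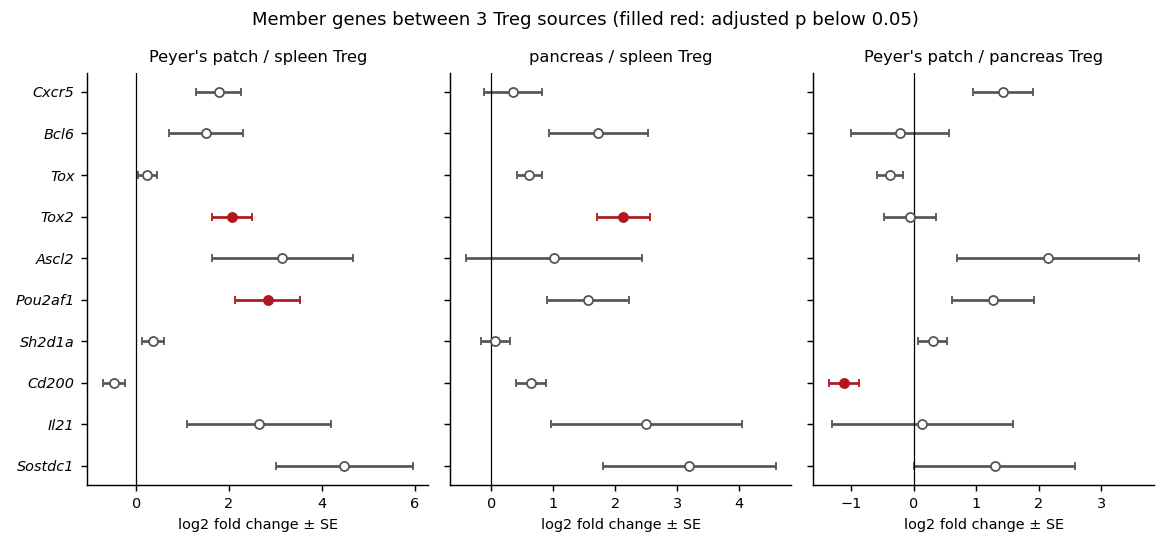
Log2 fold change ± SE of each member between Treg of Peyer's patch, pancreas and spleen, from the edgeR fit over 30 Treg libraries; filled red points have an adjusted p below 0.05. Tox2 is filled in both comparisons with spleen (2.06 and 2.12), Pou2af1 in Peyer's patch against spleen (2.83) and Cd200 in Peyer's patch against pancreas (-1.11).

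Counted over the set, 2 of 10 members were called higher in Peyer's patch than in spleen Treg, where 0.586% of the 17909 genes tested were called higher, and none was called lower, against 0.257% of all genes. In pancreas against spleen, 1 of 10 was called higher (1.46% of all genes). In Peyer's patch against pancreas, 1 of 10 was called lower (0.48% of all genes). The median log2 fold change of the members was 1.92 in Peyer's patch against spleen and 1.28 in pancreas against spleen, beside 0.02 for all genes tested in each. Because the members were chosen with earlier results of these data known, these shares and medians are a description and no independent check.

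By ranges alone, 7 members (Bcl6, Ascl2, Tox2, Pou2af1, Cxcr5, Il21 and Sostdc1) had every Peyer's patch Treg library above every spleen library, as did 16.9% of the 12569 genes with a mean of at least 1 CPM, and Cd200 had every one below (10.2% of those genes). In pancreas, 5 members (Bcl6, Tox, Tox2, Cd200 and Sostdc1) had all libraries above spleen (17.8% of those genes) and none had all below (13.0%). Between Peyer's patch and pancreas, Cxcr5 was apart and higher in Peyer's patch (10% of those genes) and Cd200 apart and lower (9.75%). With DESeq2 4 members and with limma-voom 6 members passed in Peyer's patch against spleen, and 5 passed when only the libraries of these 2 sources were fitted. Each of these fits also called more of all genes than the main edgeR fit, which called 151 of 17909 (0.843%). The member counts thus rose together with the calls among all genes, which are given with the dependence on processing below.

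Across all 10 Treg sources the members fell into different orders. Peyer's patch had the highest mean of Cxcr5 (255 ± 58.3 CPM, SD, n = 3), Ascl2 (9.96 ± 7.38), Sh2d1a (189 ± 47.9), Sostdc1 (48.2 ± 40.3) and Pou2af1 (34.0 ± 16.8). LPL Treg had the highest Bcl6 (235 ± 8.96) and Tox2 (458 ± 70.6), pancreas the highest Tox (296 ± 71.1) and Cd200 (170.0 ± 35.2), and IEL Treg the highest Il21 (12.9 ± 1.31). Most neighbours in these orders overlapped: of 9 steps between neighbouring sources, 3 were free of overlap for Bcl6 and Tox2, 2 for Cxcr5, 1 for Sostdc1 and none for the other members. Cxcr5 in Peyer's patch and Bcl6 and Tox2 in LPL were apart from the source ranked next.

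**Figure D3:**
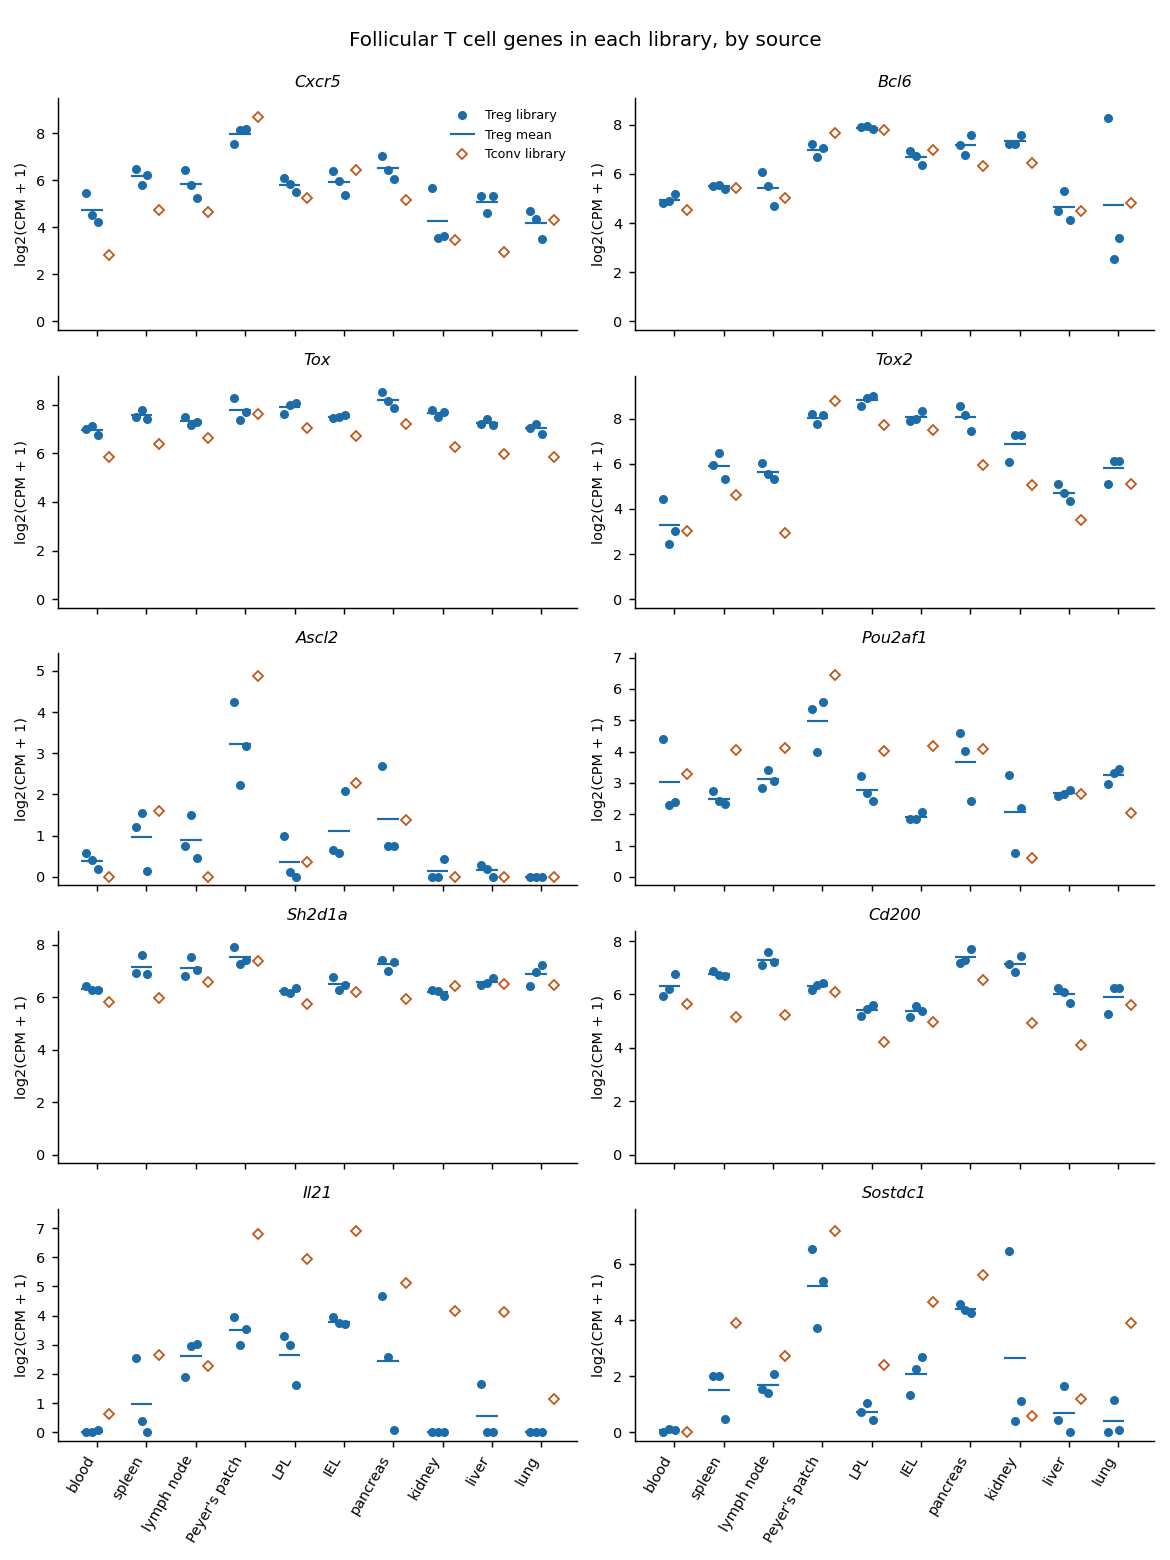
CPM of each member in every library, as log2(CPM + 1), by source; filled points are Treg libraries with a line at the mean of their log2 values, and open diamonds are the single Tconv libraries. Cxcr5 is highest in Peyer's patch, with the Tconv library (408 CPM) above the Treg libraries, whereas Tox2 is highest in LPL Treg and Il21 is higher in the Tconv library than in the Treg libraries of 9 of 10 sources.

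The gut wall populations had high Tox2 with low Cd200. Tox2 was at 379.6, 479.6 and 516 CPM in LPL Treg and at 235, 249.8 and 320.1 in IEL Treg, all above the spleen libraries, and rose by 2.89 ± 0.44 and 2.11 ± 0.43 (log2) against spleen (adjusted p = 0.000128 and 0.00255, edgeR). Cd200 was at 35.1, 42.8 and 47.2 CPM in LPL Treg and at 34.7, 46.1 and 40.6 in IEL Treg, all below spleen, and fell by 1.37 and 1.42 (adjusted p = 0.000646 and 0.000738, edgeR). These 4 calls held under each of the 11 alternatives run. In LPL, Sh2d1a also fell, by 0.93 (74.4, 71.2 and 79.9 CPM, adjusted p = 0.0103, edgeR), a call lost without spleen replicate 3 (adjusted p = 0.118). Thus 3 of 10 members were called in LPL (12.5% of all genes) and 2 of 10 in IEL (7.86%). Summed counts of 5 plasma cell genes came to 377 to 715 CPM in LPL Treg and 77.1 to 89.3 in IEL Treg, against 67.1 to 110 in spleen Treg. Those of 12 intestinal epithelium genes came to 86.2 to 1328 CPM in LPL Treg and 108 to 743 in IEL Treg, against 29.02 to 35.9 in spleen Treg. The part of these cells in the gut wall values was not tested.

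In blood, 1 of 10 members was called (1.52% of all genes): Tox2, at 20.4, 4.47 and 7.10 CPM, fell by 2.57 against spleen (adjusted p = 0.00168, edgeR), with no overlap. In lung, 3 of 10 were called lower (2.7% of all genes were called lower). Cxcr5 was at 24.7, 19.3 and 10.4 CPM there, below every spleen library, and fell by 1.98 ± 0.49 (adjusted p = 0.0149, edgeR), a call lost without lung replicate 6 or spleen replicate 2 (adjusted p = 0.0648 and 0.0642). Cd200 fell by 0.79 ± 0.24 (37.7, 75.0 and 74.1 CPM, adjusted p = 0.0481, edgeR), a call lost without lung replicate 1 or any 1 spleen library (adjusted p from 0.102 to 0.143). Ascl2 was at 0 in all lung Treg libraries, where 3 counts would be 0.119 to 0.166 CPM, and was called lower (adjusted p = 0.0357, edgeR); leaving out any lung library or spleen replicate 2 or 3 ended that call (adjusted p from 0.0542 to 0.0913). These limits, like the intervals below, cover counting error only. Summed counts of 9 myeloid and dendritic cell genes came to 143 to 1843 CPM in lung Treg, lowest in replicate 1, against 79.5 to 108 in spleen Treg, and their part was not tested.

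In kidney, 1 of 10 members was called (5.75% of all genes): Sh2d1a, at 77.4, 73.7 and 65.6 CPM, fell by 1.004 ± 0.24 (adjusted p = 0.0111, edgeR), a call lost without kidney replicate 5 or spleen replicate 3 (adjusted p = 0.0681 and 0.114). Sostdc1 stood apart in kidney replicate 1, at 85.5 CPM against 0.304 and 1.16 in replicates 3 and 5. That library also had a summed level of 10 kidney tubule genes, led by Umod, Gpx3 and Slc12a1, of 2397 CPM against 48.5 and 35.6; its part in the Sostdc1 value was not tested. Il21 was at 0 in all kidney and lung Treg libraries. With edgeR no member was called in lymph node (2.04% of all genes called) or liver (1.16%). There 1 and 4 of the 10 had an unadjusted p below 0.05, beside 3118 and 2486 of the 17909 genes tested. DESeq2 and limma-voom each called 0 members in lymph node and 2 in liver. Their calls among all genes in these 2 sources are not given here, so these counts are no result about the members.

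Treg and Tconv were then compared over all sources, with the source taken out as an additive factor, to see on which side of the Foxp3 sort each member lay. Tox, Tox2, Sh2d1a and Cd200 were higher in Treg, and Il21 and Sostdc1 were higher in Tconv. Thus 4 of 10 members were called higher (9.88% of the 14983 genes tested) and 2 of 10 lower (7.28%). The members' median log2 fold change was 0.39, beside a value near 0 for all genes tested. The single Tconv library of a source was assumed to vary like its Treg libraries.

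Among the nuclear regulators, Tox rose by 0.95 ± 0.10 in Treg (adjusted p = 2.27e-08, edgeR), with the Tconv library below every Treg library in 9 of 10 sources, and Tox2 rose by 1.052 ± 0.25 (adjusted p = 0.00248, edgeR), with Tconv below in 8. Bcl6, Ascl2 and Pou2af1 had log2 fold changes of 0.33 ± 0.33, 0.27 ± 0.73 and -0.76 ± 0.36 and did not pass (adjusted p = 0.571, 0.866 and 0.155, edgeR). Among the surface and adaptor genes, Cd200 rose by 1.09 ± 0.17 (adjusted p = 9.64e-06, edgeR; Tconv below in 9 sources) and Sh2d1a by 0.45 ± 0.12 (adjusted p = 0.00949, edgeR; below in 6). Cxcr5 was at 0.75 ± 0.27 and did not pass (adjusted p = 0.0542, edgeR), although it did without the Peyer's patch Tconv library, at 0.97 (adjusted p = 0.0125).

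The secreted members lay on the other side. Il21 fell by 3.78 ± 0.65 in Treg (adjusted p = 5.8e-05, edgeR), and the Tconv library was above every Treg library in 9 of 10 sources. Tconv values of Il21 ran from 0.557 CPM in blood to 111 in Peyer's patch and 117 in IEL, beside 11.98 to 14.4 CPM in IEL Treg. Sostdc1 fell by 2.05 ± 0.64 (adjusted p = 0.0216, edgeR), with Tconv above every Treg library in 7 sources. This call was lost without the Tconv library of IEL, lung or spleen (adjusted p = 0.0539, 0.0875 and 0.0543).

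**Figure D4:**
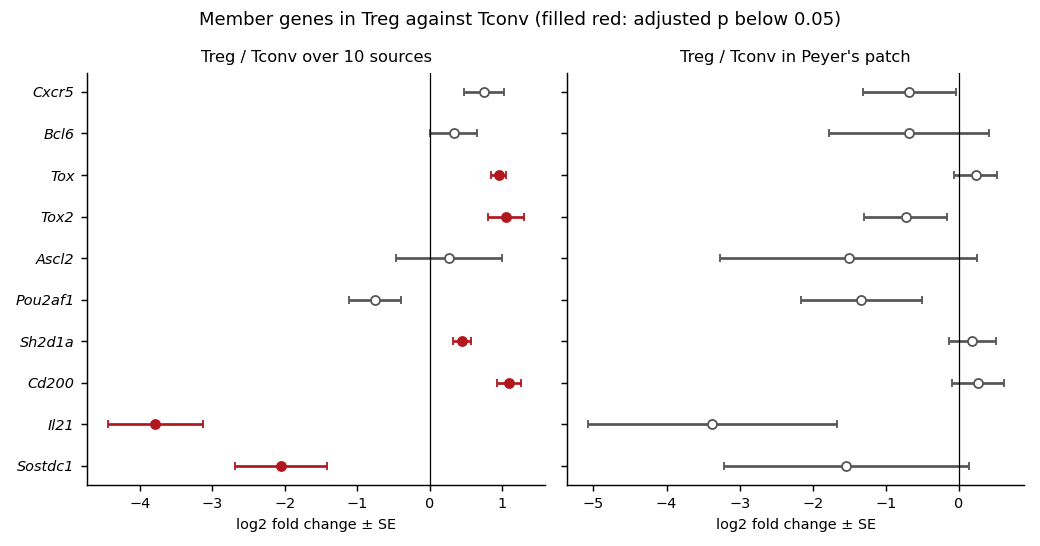
Log2 fold change ± SE of each member in Treg against Tconv, over 10 sources (left) and in Peyer's patch alone (right), where Tconv is 1 library; filled red points have an adjusted p below 0.05. Over all sources Tox, Tox2, Sh2d1a and Cd200 lie to the right of 0 and Il21 and Sostdc1 to the left, and in Peyer's patch none is filled.

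Among the 10 Tconv libraries, Peyer's patch had the highest value of 7 members: Cxcr5, Tox, Tox2, Ascl2, Sh2d1a, Sostdc1 and Pou2af1. How many of all genes were highest in this library was not counted, so the number is no result about the members. The library also detected the most genes of the Tconv libraries, 19167, followed by pancreas Tconv with 17933. With 1 library per source these are values without a replicate check, and intervals are exact Poisson ones. Cxcr5 was at 408 CPM (95% interval 399.9 to 417) in Peyer's patch Tconv, 4.78 times the next source, IEL, and at 25.8 (23.5 to 28.2) in spleen Tconv. Tox2 was at 439.6 CPM (431 to 448) in Peyer's patch Tconv and at 23.8 (21.6 to 26.1) in spleen Tconv. Both genes were higher in the Peyer's patch Tconv library than in any Peyer's patch Treg library, and in spleen Tconv lower than in any spleen Treg library.

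Pou2af1 was at 85.7 CPM (81.9 to 89.6) in Peyer's patch Tconv against 15.5 (13.8 to 17.4) in spleen Tconv. Sostdc1 was at 140.5 CPM (136 to 145) against 13.7 (12.1 to 15.5). Ascl2 was at 28.3 CPM (26.2 to 30.6) against 2.01 (1.42 to 2.76). These 3 genes and Il21 were above all Treg libraries of the same source in both Peyer's patch and spleen. In spleen the Tconv intervals of Ascl2 and of Il21 (5.24 CPM, 4.26 to 6.38) took in the highest Treg library, at 1.90 and 4.80 CPM. How many of all genes lay above the Treg libraries in both sources was not counted. Bcl6 was at 204 CPM (199 to 210.4) in Peyer's patch Tconv, above the Treg libraries there, and at 41.5 (38.7 to 44.5) in spleen Tconv, within them. The germinal center B cell sum of 13.2 CPM and an intestinal epithelium sum of 247 CPM in the Peyer's patch Tconv library, against 2.22 and 3.49 in spleen Tconv, moved with these values, and their part was not tested.

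Within Peyer's patch, none of the 10 members was called between Treg and Tconv by edgeR (0.192% of 22976 genes called), and none had an unadjusted p below 0.05; DESeq2 called none and limma-voom 2, Il21 (-3.58) and Sostdc1 (-2.37). The edgeR value for Il21 was -3.37 ± 1.71 (unadjusted p = 0.0635). The Peyer's patch effect (against spleen) in Treg minus that in Tconv was also fitted directly. No member and no other gene was called (0% of 22976 genes, 505 of them at an unadjusted p below 0.05; 36 genes with DESeq2 and 84 with limma-voom, none of them a member). The differences for Cxcr5 (-2.18 ± 0.96), Tox2 (-2.12 ± 0.85), Cd200 (-1.39 ± 0.50), Sh2d1a (-1.04 ± 0.46) and Tox (-0.96 ± 0.41) had unadjusted p of 0.0312, 0.0196, 0.00985, 0.0313 and 0.0274, with every adjusted p at 1.

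Other genes of the follicular program were followed in 4 lists by role. In Peyer's patch against spleen Treg, edgeR called 0 of 15 surface and secreted genes, 0 of 9 transcription factors and 0 of 15 genes that oppose the program (0.843% of all genes called). Of them 6, 3 and 3 had an unadjusted p below 0.05, as did 2122 of the 17909 genes tested. DESeq2 called 2, 1 and 1, and limma-voom 6, 2 and 3, and both also called more of all genes than edgeR did. The 5 surface genes with the smallest p were S1pr2 (1.21), a receptor that holds cells in the follicle, Icos (1.21) and Pdcd1 (0.88), the textbook follicular receptors, P2rx7 (0.79) and Il4 (4.38), all as log2 fold changes with adjusted p from 0.118 to 0.323. Icos was at 460.3 to 728 CPM in Peyer's patch Treg and at 174 to 306 in spleen Treg, without overlap. The factors with the smallest p were Maf (1.12), which drives Il21 in helper cells, Irf4 (1.008), Stat3 (0.69) and Tcf7 (0.57). Of the opposing genes, Il7r, the receptor of long-lived resting cells, was at -1.18 ± 0.31 (adjusted p = 0.0717, edgeR), followed by Stat5b (0.60), Selplg (0.43) and Ccr7 (1.23).

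Of 6 genes known from follicular regulatory cells, 1 was called, where 0.257% of all genes were called lower: Nrn1, neuritin, fell by 2.68 ± 0.54 in Peyer's patch against spleen (adjusted p = 0.0121, edgeR). It was at 4.81 to 8.01 CPM in Peyer's patch Treg and at 38.9 to 42.0 in spleen Treg, without overlap, so it moved opposite to what its list name describes. Nfatc1 (0.78), Il1r2 (1.43) and Egr2 (1.12) did not pass. In pancreas against spleen, Cd40lg, the B cell helper ligand, rose by 1.69 ± 0.32, Irf4 by 1.90 ± 0.39 and Id2, an opposing factor, by 1.55 ± 0.41 (adjusted p = 0.0041, 0.00903 and 0.0455, edgeR). They were 1 of 15 surface genes, 1 of 9 factors and 1 of 15 opposing genes, where 1.46% of all genes were called higher.

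**Figure D5:**
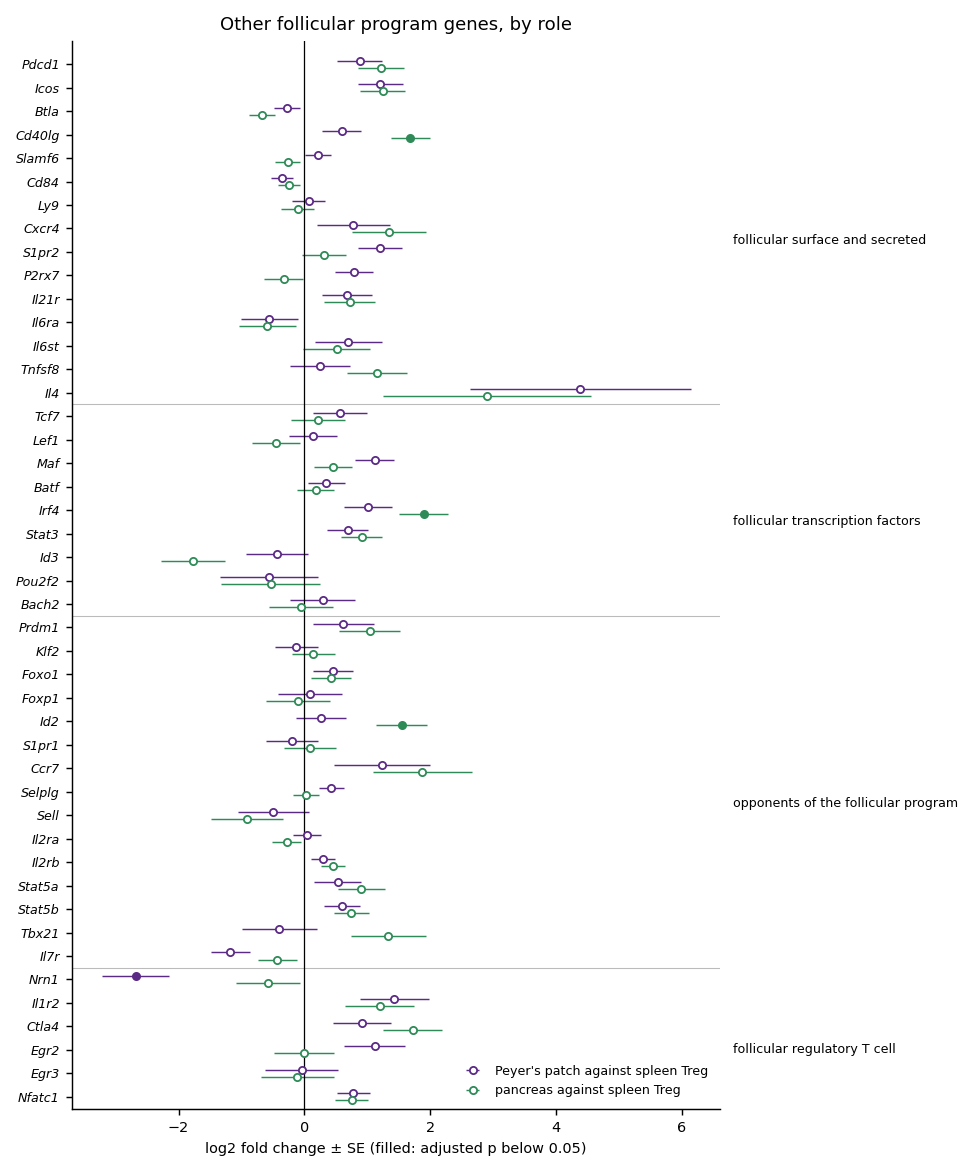
Log2 fold change ± SE of the other follicular program genes, grouped by role, in Peyer's patch Treg (purple) and pancreas Treg (green) against spleen Treg; filled points have an adjusted p below 0.05. Nrn1 is the only filled point of Peyer's patch (-2.68), and Cd40lg, Irf4 and Id2 are filled for pancreas (1.69, 1.90 and 1.55).

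In Treg against Tconv these lists split. Of 15 surface and secreted genes, Pdcd1 rose by 1.37 and Icos by 0.91 and Cd40lg fell by 2.21 in Treg (adjusted p = 7.2e-05, 0.000352 and 4.46e-15, edgeR). Of 9 factors, 5 rose, among them Pou2f2 (1.53), which encodes an octamer-binding partner of Pou2af1, and Maf (1.11), and 2 fell, Tcf7 (-0.996) and Lef1 (-0.87), which act early in the program. Of 15 opposing genes 6 rose and 3 fell, with Il2ra, the IL-2 receptor chain that marks Treg, at 3.70 and Il7r at -1.29. Of the 6 follicular regulatory genes 3 rose: Il1r2 (3.09), Ctla4 (3.03) and Nrn1 (2.40). Beside these list counts, 9.88% of the 14983 genes tested were called higher in Treg and 7.28% lower.

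Pairs of members ran alike to different degrees over the 10 Treg source means of log2(CPM + 1), given as a description since the means share libraries and depth. Cxcr5 and Ascl2 had the highest Pearson r of any pair of members, 0.93, and Ascl2 and Sostdc1 had 0.83. Bcl6 and Tox2 had 0.88, Bcl6 and Tox 0.86, and Tox and Tox2 0.83. Il21 had 0.80 with Cxcr5 and 0.72 with Tox2, Tox and Sostdc1 had 0.72, and Sh2d1a had 0.74 with Ascl2. Bcl6 had 0.36 with Ascl2 and -0.08 with Sh2d1a. Pou2af1 had 0.74 with Ascl2 and 0.73 with Sh2d1a, and 0.07 with Bcl6, 0.22 with Tox and 0.15 with Tox2. Whether the members part into groups was not tested. The lung mean of Bcl6 holds replicate 1 at 311 CPM, and the kidney mean of Sostdc1 holds replicate 1 at 85.5 CPM, both far above the other replicates. Cd200 had no r above 0.42 with any member. Its r was 0.42 with Sostdc1, 0.41 with Sh2d1a, 0.23 with Tox, 0.19 with Pou2af1, 0.14 with Ascl2, 0.08 with Cxcr5, 0.01 with Bcl6, -0.16 with Tox2 and -0.18 with Il21. Over all genes with a mean of at least 1 CPM, those most like Cxcr5 were Gpr153 (0.94), Ascl2 (0.93) and Cbx6 (0.92), and those most like Ascl2 were Gpr153, Cxcr5 and Krt17 (0.93, 0.93 and 0.91). The genes most like Bcl6 were Slc41a1, Tulp2 and Phkb (0.96, 0.96 and 0.95). Those most like Tox2 were B4galt4, Fbxw8 and Nr2f6 (0.98, 0.97 and 0.97). The best match reached 0.97 for Cd200 (Pfdn1), 0.96 for Il21 (Msl3l2), 0.94 for Tox (Fanca), 0.90 for Sostdc1 (Anp32b), 0.89 for Sh2d1a (Pstpip2) and 0.87 for Pou2af1 (Prepl).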

How the data were processed

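The deposited table holds raw read counts per gene (3′ mRNA libraries made with the QuantSeq kit, per the labels' protocols), 1 column per library. STAR, featureCounts and mm10 are named, without versions, per the submitters' processing notes; the annotation release, strand setting and treatment of reads with several matches are not given in the sources used here. Gene symbols came from the reference annotation for 54587 of 55421 identifiers matched with their version, and 55154 had a symbol. Totals ran from 12197980 to 28823493 counts. A level is CPM after TMM scaling over 40 libraries; 3′ counts were not divided by length, so levels are not compared between genes.

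Tests were edgeR 4.0.16 quasi-likelihood F tests (R 4.3.3) with TMM, filterByExpr by group and Benjamini-Hochberg adjustment over all genes tested, called at an adjusted p below 0.05: a fit of 30 Treg libraries with a mean per source (17909 genes), a fit of all 40 with source additive (14983) and a fit of all 40 with separate means for the Treg and Tconv of each source (22976). SE is the log2 fold change divided by the square root of F. Every pair of Treg replicates of a source differed beyond sampling noise (chi-square per degree of freedom of at least 20.1). The fits were tested on simulated counts. Alternatives were DESeq2 1.42.0, limma-voom 3.58.1, DESeq2 size factors, no filter, the replicate number as a block, only the sources compared, lymph node as reference, leaving out each library and, chosen after seeing the data, removing acinar genes and leaving out lung or kidney Treg replicate 1. The members and lists were chosen with earlier results of these data known; the kidney tubule list was added after seeing the values. A gene of the germinal center B cell list was left out and is not reported here. Named besides the members were up to 4 genes of each pathway list with the smallest p in Peyer's patch against spleen Treg, Pdcd1 and Icos, the genes called in the other main comparisons (chosen after their values were seen), the 3 most abundant genes of a marker list, and the 3 genes with the highest Pearson r to a member. Figures were drawn with matplotlib 3.10.9 (Python 3.11.15).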

Additional observations from a re-analysis of the deposited data

How the results depend on the processing

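Of 1190 alternative values of the members' fold changes, 1083 kept direction and side of the threshold, 48 lost a call, 37 gained one and 22 changed sign. In Peyer's patch against spleen Treg, 2 members and 151 genes were called; this became 1 member with DESeq2 size factors, 1 with no filter, 4 members and 583 genes with DESeq2, 6 and 1580 with limma-voom, 1 and 87 with the replicate number as a block, 5 and 400 with the libraries of the 2 sources only, and 575 genes with lymph node as reference; leaving out 1 library gave 0 to 3 members and 23 to 260 genes. In pancreas against spleen (1 member, 369 genes) the counts were 221 genes with no filter, 1070 genes with DESeq2, 5 members and 2568 genes with limma-voom, 0 and 94 with the block, 3 and 716 with the 2 sources only, 2 and 999 against lymph node, and 0 to 2 members and 84 to 670 genes without 1 library. In Peyer's patch against pancreas (1 member, 123 genes) they were 419 genes with DESeq2, 3 members and 1415 genes with limma-voom, 0 and 56 with the block, 0 members with the 2 sources only, and 0 to 1 member and 50 to 239 genes without 1 library. In Treg against Tconv, 6 members became 5 to 7 without 1 library and 5 with the block, and the count of genes called moved by less than 1.5 times. Within Peyer's patch, 0 members became 2 with limma-voom and 44 genes became 195 with DESeq2, 527 with limma-voom and 22 to 32 without 1 library. The test of the Peyer's patch effect between cell types went from 0 genes to 36 with DESeq2 and 84 with limma-voom. The 10 member calls summed over the other sources became 23 with DESeq2, 21 with limma-voom and 6 to 11 without 1 library. The calls among all genes in those sources are not given here for DESeq2 and limma-voom. Both called more of all genes than edgeR in the comparisons of Peyer's patch, pancreas and spleen Treg above, so this rise is no result about the members.

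Signs changed for values that were not called, with 1 exception. With the block, Ascl2 and Sh2d1a in pancreas against spleen went to -0.25 and -0.17 and Ascl2 in Treg against Tconv to -0.26. With limma-voom, Ascl2 in Treg against Tconv was called lower, at -1.45, and Il21 in the test between cell types went to 0.79. Leaving out 1 library gave ranges across 0: in Peyer's patch against spleen for Tox (-0.045 to 0.44); in pancreas against spleen for Ascl2 (-0.70 to 1.66) and Sh2d1a (-0.072 to 0.36); in Peyer's patch against pancreas for Bcl6 (-0.39 to 0.026), Tox2 (-0.31 to 0.20) and Il21 (-0.46 to 2.07); in Treg against Tconv for Bcl6 (-0.015 to 0.47) and Ascl2 (-0.054 to 0.70); in Peyer's patch Treg against Tconv for Tox (-0.063 to 0.41) and Sh2d1a (-0.042 to 0.31); and in the test between cell types for Il21 (-2.38 to 1.90). The cause was not tested. Replicate numbers gave no sign of pairing: same-numbered Treg libraries of different sources had a median correlation of -0.04 over 58 pairs (over 0.1 in 14), beside 0.01 over 347 pairs with different numbers. The same-numbered values ran from -0.64 to 0.48, and the labels do not say what a number marks. Whether some libraries share a mouse therefore cannot be told from these values. No blocked fit was made with separate means for the Treg and Tconv of each source. Ascl2 was at 0 counts in all lung Treg libraries and Il21 in all kidney and lung Treg libraries, where a level below 3 counts per library cannot be told from none.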
